A study of Saccharomyces cerevisiae with 4 samples.

Results

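The mitochondrial genome of the budding yeast Saccharomyces cerevisiae was represented on a genome tiling array by 295 of 41775 data probes, 0.706% of all, chosen by the chromosome name chrM in the deposited files. Chromatin immunoprecipitation on arrays (ChIP-chip) was run on 2 strains that each carried a TAP tag, a protein handle that binds IgG beads, on 1 subunit of RNA polymerase II. The Rpb3 group (2 arrays) had the tag on Rpb3, which belongs to the core of the enzyme, and the Rpb4 group (2 arrays) had it on Rpb4, which forms with Rpb7 a stalk that can come off. Both strains are labelled S288c, and both were grown in YPD, a glucose-rich medium, at 25 °C to an optical density of 0.8, then fixed in 1% formaldehyde for 20 min. On all 4 arrays the immunoprecipitated DNA (IP) carried Cy5 and the whole-cell extract (WCE), which is the total DNA put into the precipitation, carried Cy3. No untagged strain and no mock precipitation was used here, so signal from DNA that sticks to the beads could not be measured. Nothing in the labels says that repeat arrays stand for separate cultures, and the p-values below measure only the spread between these arrays, which may be technical. Array numbers 1 and 2 are names and pair nothing.

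Yeast mitochondrial DNA encodes subunits of cytochrome c oxidase, cytochrome b, subunits of the ATP synthase, a ribosomal protein and its own rRNAs and tRNAs. It is transcribed by RPO41, a single-subunit polymerase related to that of bacteriophage T7, with the factor MTF1, and not by RNA polymerase II. Yeast cells that lose part or all of this DNA stay alive on fermentable sugar. The extract channel of these arrays therefore reads how much of each mitochondrial sequence was in the sheared DNA, and the ratio of IP to extract reads how much of it came down with the tagged subunit or with the beads.

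The probes started at positions 49 to 85719 of chrM in the authors' coordinates, with a median spacing of 273 bp. The genome build behind these coordinates is not given in the sources used here. By their annotation 85 probes lie inside 18 genes, 55 in promoters and 36 downstream of genes, and 119 have no class. All 18 genes matched a locus tag of the R64 table, which was used for names only. COX2 (Q0250), the gene of cytochrome c oxidase subunit II, has no probe marked as inside it, but 4 probes lie 72 to 705 bases past its start by the secondary annotation, and those 4 stand for it below. The files name the single probe inside ATP8 by that gene's other name, AAP1.

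The extract from the Rpb4 strain held far less of most mitochondrial genes than the extract from the Rpb3 strain. A probe was counted as above background when its foreground minus background (its net signal) passed 2.6 times the deposited background SD. In the extract, 258 and 260 of the 295 probes passed on the Rpb3 arrays, against 163 and 136 on the Rpb4 arrays. All but 5 to 14 of the 41480 nuclear probes passed in that channel, and their median net extract signal was 8270 and 8613 units with Rpb3 and 8224 and 7585 with Rpb4. Over the 85 probes inside mitochondrial genes, the median net extract signal was 1474 and 1229 units on the Rpb3 arrays, and 69.0 and 14.0 on the Rpb4 arrays. The 2 groups did not overlap, and the 2 Rpb4 arrays were themselves far apart. In extracts of whole cultures, fewer cells with mitochondrial DNA and fewer copies per cell cannot be told apart.

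**Figure D1:**
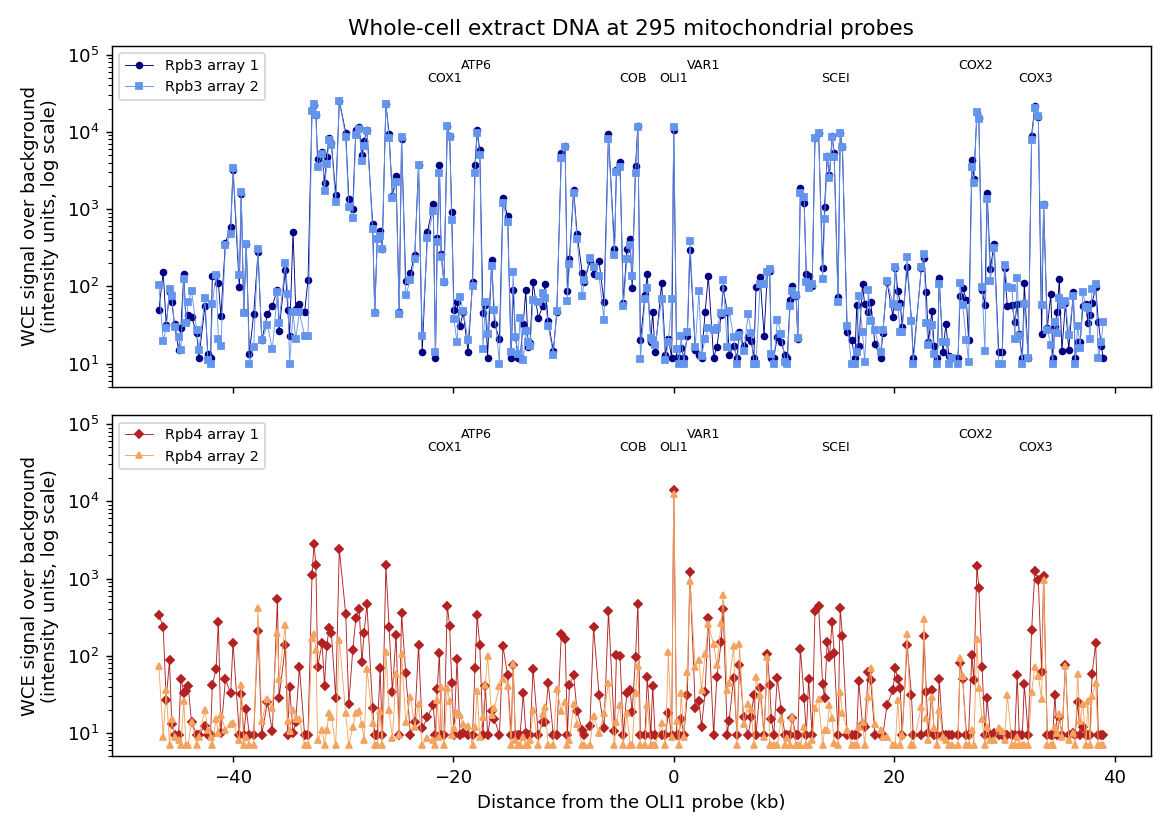
Net signal of the whole-cell extract (intensity units, log axis) at the 295 mitochondrial probes against distance from the OLI1 probe in kb, with 1 line per array, Rpb3 above and Rpb4 below, and values under an array's lowest signal above background drawn at that signal. The blocks of bright probes seen with Rpb3 are far lower with Rpb4, most of all on array 2, while the OLI1 probe reaches 10715 to 14059 units on all 4 arrays.

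Genes of the respiratory chain were among those that were lower. COX1, which encodes the catalytic subunit of cytochrome c oxidase, had mean net extract signals over its 7 probes of 3769 and 3542 units with Rpb3 and of 127 and 22.2 with Rpb4. On the scale of each array's median probe, these Rpb4 values were 3.56% and 0.676% of the Rpb3 mean. Dim Rpb4 probes have no usable log value, so values under the lowest signal above background of their array were set to that signal (a floor, chosen after the data were seen). The folds below are from means of these log2 values over probes and arrays, so they are no bound on the ratio of the printed mean signals, which can be smaller where the Rpb4 arrays differ. On this scale COX1 was 34.7-fold lower with Rpb4 (limma adjusted p = 0.00564 with floored values, and 0.0177 without the floor).

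COX3, which encodes another core subunit of that enzyme, stood at 15448 and 14913 units with Rpb3 and at 806 and 53.5 with Rpb4, with all 3 probes above background on every array. It was 73.4-fold lower (floored limma adjusted p = 0.0422). The 4 probes of COX2 had mean net extract signals of 9967 and 9562 units with Rpb3 and of 592 and 55.6 with Rpb4. These Rpb4 means were 6.21% and 0.634% of the Rpb3 mean. Each of the 4 probes was lower in the floored probe-level limma fit, by 33.8- to 118-fold on the log2 scale (adjusted p from 0.00423 to 0.0267). COB, which encodes cytochrome b of the bc1 complex, fell from 3309 and 3014 units to 131 and 25.6, 23.1-fold (floored limma adjusted p = 0.0112).

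ATP6, which encodes a membrane subunit of the ATP synthase, had 5073 and 4465 units with Rpb3 against 136 and 14.5 with Rpb4, which were 2.93% and 0.338% of the Rpb3 mean. It was 64.2-fold lower on the log2 scale (floored limma adjusted p = 0.0153). ATP8, another membrane subunit of that enzyme, rested on 1 dim probe, chrM:27662-27721, with 46.0 and 48.0 units against 10.0 and 13.0. It was 3.86-fold lower in the floored fit (limma adjusted p = 0.00350) and had no value in the fit without the floor.

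The reading frames inside the introns of COX1 and COB moved with their host genes. AI1 and AI2, which encode reverse transcriptases of group II introns, had mean net extract signals on the Rpb3 arrays of 9236 and 8856 units and of 9064 and 8337 units. On the Rpb4 arrays AI1 had 626 and 55.4 units and AI2 had 483 and 31.6. These were 7.10% and 0.681% of the Rpb3 mean for AI1, and 5.69% and 0.403% for AI2, or 80.8- and 84.7-fold lower on the floored log2 scale. AI3, AI4 and AI5_ALPHA, which encode homing endonucleases of COX1 introns, and AI5_BETA were 26.2-, 30.0-, 9.76- and 15.9-fold lower. BI2, BI3 and BI4, which encode RNA maturases of COB introns, were 26.3-, 9.04- and 24.8-fold lower. The adjusted p of these 9 genes in the floored limma fit lay between 0.00217 and 0.0386. Without the floor, AI1, AI2, AI4 and BI2 passed and 4 did not: AI3 (limma adjusted p = 0.233), BI3 (0.182), BI4 (0.0961) and AI5_ALPHA (0.0875). BI3 was uneven: its probe chrM:39485-39544 read 144 and 180 units with Rpb3 and 234 and 16.5 with Rpb4, so it was higher on 1 Rpb4 array than on either Rpb3 array and near background on the other. The BI3 means on the Rpb4 arrays were 42.7% and 6.29% of the Rpb3 mean.

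SCEI, the homing endonuclease of the intron of the large rRNA gene, was 54.2-fold lower, with 4780 and 4467 units against 128 and 8.67 (floored limma adjusted p = 0.0246, and 0.0795 without the floor). Q0255, a reading frame beyond COX2, was 12.9-fold lower (floored limma adjusted p = 0.00408). In all, 16 of 18 mitochondrial genes were called lower and 1 higher in the floored fit, where 5.88% and 3.44% of the 5493 genes of the whole array were called in those directions. Without the floor, 9 of the 16 genes with a value were lower and 1 was higher, where 5.74% and 3.41% of all genes were called. Genes drop dim probes unequally in that second fit, and AI5_BETA and ATP8 have no value in it. Leaving out 1 array at a time moved the 9 lower calls to 6 without Rpb3 array 1, to 5 without Rpb3 array 2, to 14 without Rpb4 array 1 and to 13 without Rpb4 array 2, where 10.8%, 5.08%, 5.03% and 3.97% of all genes were lower.

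OLI1 and VAR1 did not follow the other genes. OLI1 (ATP9), which encodes the proton-carrying ring subunit of the ATP synthase, has 1 probe inside it, chrM:46756-46815. Its net extract signal was 10715 and 11514 units with Rpb3, and 14059 and 12612 units with Rpb4. Both Rpb4 values were above both Rpb3 values, and the scaled difference was 0.36 ± 0.03 (log2, SE, n = 2 arrays a group, limma adjusted p = 0.00364), a 1.28-fold higher level. It was called higher under each of the alternatives that kept genes with 1 probe, at 0.33 to 0.77. VAR1, which encodes a protein of the small mitochondrial ribosomal subunit, had mean net extract signals over its 4 probes of 50.6 and 37.4 units with Rpb3 and of 95.6 and 121 with Rpb4. Both Rpb4 values were higher, but the difference of 1.38 (95% interval 0.42 to 2.35, log2) missed the threshold (limma adjusted p = 0.103, and 0.176 with the floor). VAR1 was dim: each mean lay below the 99th percentile of the negative control spots of its array (369 and 184 units with Rpb3, 213 and 188 with Rpb4). The same held for BI3 and ATP8, which were called lower in the floored fit.

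**Figure D2:**
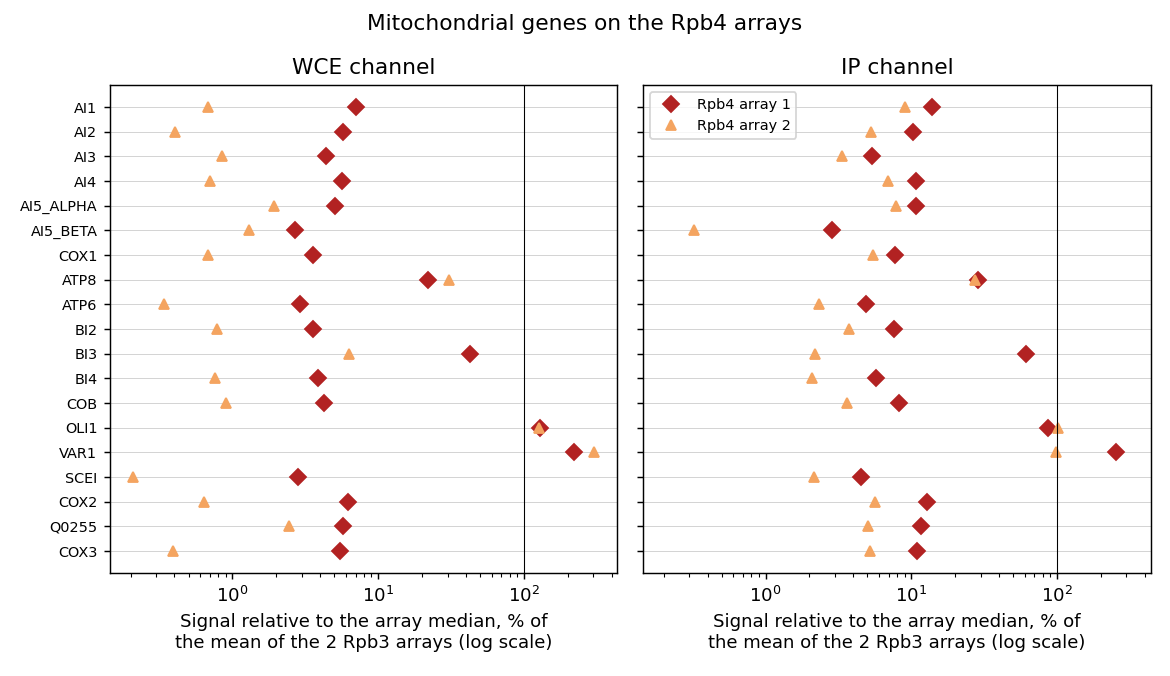
Mean signal of each mitochondrial gene on the 2 Rpb4 arrays, relative to the array's median probe, as a percent of the mean of the 2 Rpb3 arrays (log axis, the vertical line marks equality), for extract (left) and IP (right), with genes in map order and COX2 by its 4 probes. OLI1 and VAR1 lie near or above 100% in the extract, and the other genes lie between 0.208% and 42.7%.

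The probes around OLI1 and VAR1 formed 1 stretch of the map. These 3 zones were drawn after the values were seen, so their counts are a description and support nothing. From the OLI1 probe to the probe that starts at 52721, a span of 6.03 kb, there were 21 probes. Their median difference in the extract was 0.99 (log2, Rpb4 minus Rpb3, floored), 7 were called higher and 0 lower. In the 154 probes on the left of OLI1 the median difference was -2.55, with 1 higher and 107 lower. In the 120 probes on the right of the stretch the median was -1.40, with 1 higher and 53 lower. Over all 295 probes, 160 were lower and 9 higher in the floored limma fit, where 5.18% and 2.6% of all 41775 probes were called. Without the floor 103 of the 169 probes with a value were lower and 17 higher, where 5.31% and 2.85% of all probes were called.

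Within the stretch, the probe chrM:48223-48282 in the VAR1 promoter read 297 and 385 units with Rpb3 and 1208 and 924 with Rpb4, a 3.34-fold higher level (limma adjusted p = 0.000838). Downstream of VAR1, the probe chrM:51245-51304 read 95.0 and 122 units with Rpb3 and 406 and 612 with Rpb4, 4.95-fold higher (limma adjusted p = 0.00191). Its neighbour chrM:51057-51115 read 43.0 and 45.0 against 151 and 263, 4.84-fold higher (limma adjusted p = 0.00282). On each of these 3 probes both Rpb4 arrays lay above both Rpb3 arrays. The probe chrM:50372-50431 had the highest fitted difference among mitochondrial probes, 2.56, but that value used 1 array a group (27.0 units against 140), the other 2 arrays read 11.5 and 6.0 units, and its floored difference was not past the test (limma adjusted p = 0.613).

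**Figure D3:**
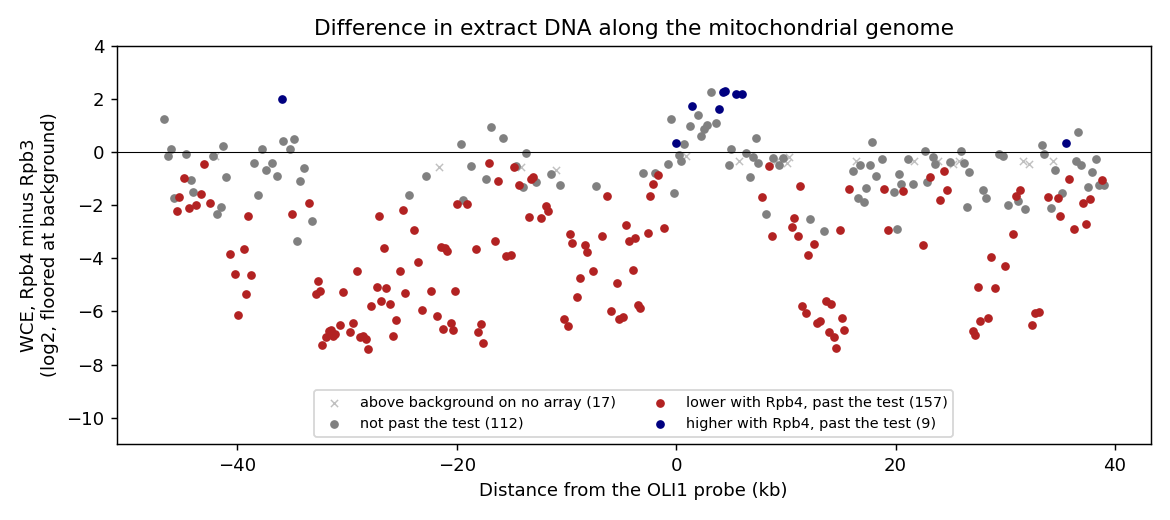
Difference in extract signal (log2, Rpb4 minus Rpb3, with values under the lowest signal above background set to it) at each mitochondrial probe against distance from the OLI1 probe in kb, coloured by the limma call at an adjusted p of 0.05. Higher probes gather within about 6.03 kb to the right of OLI1, and lower probes lie on both sides. The 17 probes above background on no array (crosses) carry no information on a difference. Still, 3 of these 17 pass as lower, and the cause of that was not tested.

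The lowest fitted differences were inside AI2 and SCEI. The AI2 probe chrM:18473-18532 read 5085 and 4155 units with Rpb3 and 82.5 and 13.0 with Rpb4, 131-fold lower (limma adjusted p = 0.00221). The SCEI probe chrM:61125-61184 read 8953 and 8558 units against 273 and 15.5, 126-fold lower (limma adjusted p = 0.00957). The AI2 probe chrM:17916-17975 read 10615 and 9171 against 304 and 18.0, 125-fold lower (limma adjusted p = 0.00911).

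Almost all probes that were bright with Rpb3 were dim with Rpb4. They were picked by their Rpb3 extract signal, which favours a fall with Rpb4, so these values are a description. The 59 below are those that did not stay over 50% of the Rpb3 mean on both Rpb4 arrays. Of the 61 probes with over 1000 net units in the extract on both Rpb3 arrays, 59 stood on Rpb4 array 1 at 1.83% to 12.7% of the Rpb3 mean (median 3.28%), and on Rpb4 array 2 at 0.125% to 4.25% (median 0.382%). The other 2 were the OLI1 probe, at 130% and 126%, and the probe chrM:80307-80366 downstream of COX3, at 98.1% and 92.9%. Over those 59 probes the log2 net extract signals correlated at 0.995 between the 2 Rpb3 arrays, at 0.932 between Rpb3 array 1 and Rpb4 array 1, and at 0.674 between Rpb3 array 1 and Rpb4 array 2. These correlations are across probes that share a slide and probe chemistry, and carry no test.

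A drop of this size was rare among nuclear probes. Both Rpb4 arrays were over 8-fold below both Rpb3 arrays (floored, scaled) at 84 of 295 mitochondrial probes, 28.5%, and at 18 of 41480 nuclear probes, 0.0434%. At over 16-fold the counts were 62 and 14. Mitochondrial probes made up 81.6% of all probes past 16-fold. A rise of over 2-fold on the same terms was seen at 7 mitochondrial probes, 2.37%, and at 78 nuclear ones, 0.188%.

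The IP signal fell at most mitochondrial genes too. COX1 had mean net IP signals of 706 and 571 units with Rpb3 and of 70.3 and 52.6 with Rpb4, 10.1-fold lower (floored limma adjusted p = 0.0116). COB went from 574 and 407 units to 56.3 and 26.4, 9.48-fold lower (floored limma adjusted p = 0.0273). In the floored fit 15 of 18 genes were lower and 0 were higher, where 3.11% and 0.492% of all genes were called. Without the floor 9 of 16 were lower and 0 higher, where 3.0% and 0.492% of all genes were called. Of the 16, 11 had an unadjusted limma p under 0.05, where 1183 of 5491 genes of the whole array had one. Of the single probes, 49 of 169 were lower and 0 higher without the floor, where 0.25% and 0.0937% of all probes were called. Of the 169, 116 had an unadjusted limma p under 0.05, where 6251 of 41643 probes of the whole array had one. Leaving out Rpb3 array 1, Rpb3 array 2, Rpb4 array 1 and Rpb4 array 2 in turn gave 136, 115, 83 and 88 lower probes and 14, 15, 5 and 10 higher ones, where 41.8%, 23.0%, 0.88% and 0.836% of all probes were lower and 36.2%, 17.6%, 0.24% and 0.25% higher. With the floor 52 of the 295 probes were lower and 0 higher, where 0.239% and 0.091% of all probes were called.

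OLI1 differed from the rest in the IP as well. Its net IP signal was 2310 and 2334 units with Rpb3 and 2940 and 3625 with Rpb4. Relative to each array's median probe the difference was -0.06 (95% interval -0.69 to 0.58, log2, limma adjusted p = 0.887), so a change inside that interval could not be seen. Its sign depended on the arrays kept: it was -0.35 without Rpb3 array 1 and 0.24 without Rpb3 array 2. Without Rpb4 array 1 it was 0.055, and without Rpb4 array 2 it was -0.17. VAR1 read 25.4 and 10.9 units against 61.6 and 25.0, and its IP difference was not past the test (limma adjusted p = 0.786). With normexp background correction, which lifts dim signals, the fitted IP difference turned positive for COX1, ATP6, COB, BI2 and SCEI.

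The ratio of IP to extract was low at mitochondrial genes in the Rpb3 strain. It is given as log2(IP/WCE) from the authors' normalized signals, minus the array's median over data probes, so that a value of 0 says nothing about whether polymerase was present. The median over all mitochondrial probes with a ratio was -1.44 and -0.95 on the Rpb3 arrays and -0.57 and 0.45 on the Rpb4 arrays. These groups did not overlap, but 2 arrays against 2 cannot reach a two-sided exact permutation p below 0.333, which is what the test gave. The gene values were negative on both Rpb3 arrays for 18 of 18 genes, with medians of -1.73 and -1.37. OLI1 had -1.64 and -1.13 (mean -1.39 ± 0.14, SE, limma adjusted p = 0.00203), and AI5_ALPHA had -2.24 and -1.82 (mean -2.03 ± 0.23, limma adjusted p = 0.00243). COX1 had -1.65 and -1.21, COB had -1.77 and -1.27, and COX3 had -1.66 and -1.52.

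Of the 18 genes 8 were called below the median probe with Rpb3 and 0 above, where 29.2% and 38.4% of all genes were called. This count leans on the Rpb4 arrays, since both groups share 1 estimate of the spread: leaving out either Rpb4 array raised it to 18, and without Rpb3 array 1 it was 5, where 19.5% and 39.9% of all genes were below. Of the single probes, 128 of 236 were below and 11 above, where 24.9% and 28.5% of all probes were called, and 27 were above without Rpb3 array 1, where 42.1% of all were. Over the 59 bright probes the ratio ran from -2.30 to -1.22 on Rpb3 array 1 (median -1.70) and from -2.27 to -0.61 on array 2 (median -1.39). Only 1 of 41470 nuclear probes on array 1 and 291 of 41476 on array 2, 0.702%, had a ratio below those medians. The 59 probes were picked for a high extract signal, by which the ratio divides. That choice favours low ratios and was not made for the nuclear probes, so the comparison is a description.

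In the Rpb4 strain the 2 arrays gave ratios of opposite sign. On array 1 the ratio was negative for 16 of 16 genes with a value, with a median of -0.81. On array 2 it was positive for 13 genes and negative for BI3, OLI1 and VAR1, with a median of 1.45. COX1 had -0.21 on array 1 and 1.92 on array 2, and AI2 had -0.90 and 3.01. At the 59 bright probes the median net extract signal was 188 units on array 1 and 20.0 on array 2, and the median net IP signal was 76.0 and 48.5. The authors' normalization took a constant of 11.0 units off the extract signal of either array before the ratio was formed, and 59 and 44 of these probes kept a ratio on arrays 1 and 2. Over all mitochondrial probes the median ratio of array 2 was 0.45 with these constants and -0.15 from foreground minus background alone. At the 59 bright probes the net IP signal exceeded the net extract signal at 0 probes on array 1 and at 49 on array 2.

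OLI1 was the gene whose extract signal was bright on all 4 arrays, and there the 2 Rpb4 arrays gave the same sign. Its ratio was -1.92 and -1.65 with Rpb4 (mean -1.78 ± 0.14, SE, limma adjusted p = 0.00119), so both Rpb4 values lay below the median probe like both Rpb3 values. The difference between the groups was -0.40 (95% interval -0.95 to 0.16, limma adjusted p = 0.335), which does not show that the 2 subunits act alike there. With normexp background correction the OLI1 difference was -0.71 (limma adjusted p = 0.0323), where 4.97% of all genes were called lower. With quantile normalization it was -0.90 and did not pass (limma adjusted p = 0.115). Without Rpb3 array 1 the OLI1 difference was -0.65, and over the alternatives it ran from -0.90 to -0.14.

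**Figure D4:**
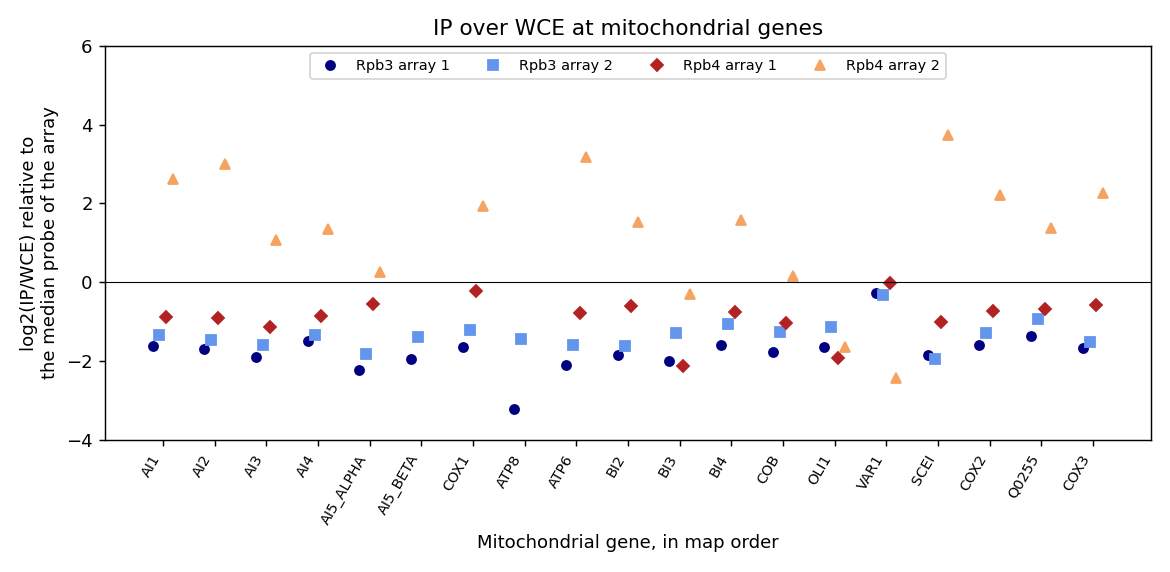
Gene means of log2(IP/WCE), centred on the median of each array, for each mitochondrial gene in map order and each of the 4 arrays (mean over the probes with a ratio, COX2 by its 4 probes). Both Rpb3 arrays lie below 0 at each gene shown, Rpb4 array 1 lies below 0 and Rpb4 array 2 mostly above (AI5_BETA and ATP8 have no Rpb4 value), and at OLI1 the 4 arrays lie between -1.92 and -1.13.

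OLI1 was the 1 gene called below the median probe with Rpb4 and 0 genes were called above, where 25.7% and 37.8% of all genes were called. It was also the 1 such gene of 16 with an unadjusted limma p under 0.05, where 3723 of 5491 genes of the whole array had one. For the difference between the groups 0 of 16 genes passed in either direction, where 2.51% of all genes were lower and 0.874% higher. Of the 16, 3 had an unadjusted limma p under 0.05, where 1197 of 5491 genes of the whole array had one. Of the single probes, 5 of 169 were higher and 1 was lower, where 0.17% and 0.694% of all probes were called. Leaving out Rpb3 array 1, Rpb3 array 2, Rpb4 array 1 and Rpb4 array 2 in turn gave 75, 93, 59 and 22 higher and 37, 9, 11 and 7 lower probes, where 34.9%, 11.2%, 0.329% and 0.197% of all probes were higher and 34.7%, 18.1%, 0.943% and 0.841% lower. For genes, without Rpb4 array 1 the count became 12 higher and 1 lower, and without Rpb4 array 2 it was 0 and 0, so those 12 were called from array 2 alone. In these 2 settings 0.401% and 0.0% of all genes were higher. For the Rpb4 level, 46 of 175 single probes were below the median probe and 14 above, where 21.2% and 26.0% of all probes were called. Those 14 became 55 without Rpb4 array 1 and 31 without either Rpb3 array, and the 46 became 29 and 87. In these settings 11.0% and 42.3% of all probes were above and 3.07% and 42.2% below.

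A few mitochondrial probes held about the same extract signal on all 4 arrays, and some of them had more IP than extract. There were 16 probes above background on every array whose scaled extract signals lay within 2-fold of each other. Of these, 6 had a positive ratio on all 4 arrays and 4 a negative one, OLI1 among the latter. These probes were chosen after their values were seen. The brightest of the 6, chrM:80307-80366, lies 1124 bases past the start of COX3 by the annotation. It read 1158, 1123, 1090 and 952 units in the extract of Rpb3 arrays 1 and 2 and then Rpb4 arrays 1 and 2, and 2518, 3128, 2289 and 1963 units in the IP. Its ratio was 1.72 and 2.66 with Rpb3 and 1.42 and 1.21 with Rpb4, a direction that the choice of the probe fixed. The other 5 had mean ratios of 1.57 to 2.67 with Rpb3 and of 1.05 to 1.70 with Rpb4. The extract signal inside COX3, next to chrM:80307-80366, fell with Rpb4. Whether this 60-nucleotide sequence also matches DNA outside the mitochondria was not tested.

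The highest ratios with Rpb3 were at dim probes. They were chrM:69858-69917 (3.27, 17.5 to 19.0 units in the extract), chrM:56501-56560 (2.67, 19.0 to 24.5 units) and chrM:82284-82343 (2.37, 61.0 to 64.0 units). The lowest were chrM:28505-28564 in ATP6 (-3.11), chrM:50671-50730 downstream of VAR1 (-3.00, from 1 array) and chrM:7755-7814 (-2.61). With Rpb4 the highest were chrM:63879-63938 (4.32, from 6.83 and 1.81, limma adjusted p = 0.0580), chrM:81327-81371 (2.92, from 1.02 and 4.82) and chrM:45660-45719 in the OLI1 promoter (2.69, from 1 array). The lowest with Rpb4 were 3 dim probes in and before VAR1, chrM:48708-48767 (-5.76, from 1 array), chrM:47993-48052 (-4.15, from -6.01 and -2.29) and chrM:49601-49660 (-3.80, from 1 array). The extract signal at those 3 was 21.0 to 104 units with Rpb4, so none of these 3 lowest values rests on a bright spot.

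The nuclear genes that keep and read the mitochondrial genome showed no called difference in polymerase ratio between the strains with all 4 arrays. Of 18 genes for maintenance and transcription of mitochondrial DNA, 0 passed in either direction in the limma fit, where 0.874% of all genes were higher and 2.51% lower, with a median difference of 0.00 (log2, Rpb4 minus Rpb3), beside a median of 0.01 over all genes. RPO41, the mitochondrial RNA polymerase, had ratios of -0.03 and -0.07 with Rpb3 and 0.03 and 0.02 with Rpb4, close to the median probe on all 4 arrays. MTF1, its promoter-recognition factor, had -0.34 and -0.66 with Rpb3 and -0.48 and -0.50 with Rpb4. ABF2, the protein that packs mitochondrial DNA, had 0.93 and 1.00 against 0.89 and 0.89. MIP1, the mitochondrial DNA polymerase, had 0.04 and -0.15 against 0.15 and 0.15, a difference of 0.20 ± 0.08 (SE, limma adjusted p = 0.268).

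The largest negative differences in that list were ILV5, a branched-chain amino acid enzyme that also binds mitochondrial DNA (-0.96 ± 0.24, limma adjusted p = 0.138), and YHM2, a mitochondrial carrier (-0.35 ± 0.06, limma adjusted p = 0.0691). The largest positive ones were DIN7, a mitochondrial nuclease (0.38 ± 0.10, limma adjusted p = 0.142), and ACO1, aconitase (0.37 ± 0.12, limma adjusted p = 0.202). For ACO1 the extract was lower with Rpb4 (-0.27, limma adjusted p = 0.0157) and the IP difference was 0.087. For ILV5 the extract was higher (0.34, limma adjusted p = 0.0452) and the IP difference was -0.63. The extract differences of DIN7 and YHM2 were 0.014 and 0.044. Of 28 splicing and translation factors for mitochondrial transcripts, 0 passed in either direction in the limma fit, against those same shares of all genes, with a median of 0.03. At an unadjusted limma p under 0.05 the counts were 4 of 18 maintenance genes and 2 of 28 of these factors. Over all genes the count was 1197 of 5491. Without Rpb3 array 1 the limma fit called 6 maintenance genes higher and 4 lower and 9 splicing and translation genes higher and 6 lower, where 33.6% and 29.0% of all genes were called. Without Rpb3 array 2 it called 3 and 3 maintenance genes and 2 and 0 of the others, where 10.6% and 15.8% of all genes were called. CBP1 (0.24) and PET111 (0.24), needed for the COB and COX2 transcripts, had the largest positive values, and ATP22 (-0.14) and PET122 (-0.10), needed to translate ATP6 and COX3, the largest negative ones.

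Of 32 nuclear genes for subunits of the complexes that mitochondrial genes also feed, 28 had probes inside them. RIP1, the iron-sulfur protein of the bc1 complex, was the 1 called lower with Rpb4, with 0.45 and 0.43 against -0.36 and -0.30 (difference -0.76 ± 0.06, limma adjusted p = 0.0158), and 0 were called higher. This call was lost without either Rpb4 array, in fits that called few or no genes of the whole array. The next largest negative difference was ATP19 (-0.70, limma adjusted p = 0.238). At an unadjusted limma p under 0.05 the count in this list was 15 of 28, beside 1197 of 5491 over all genes. COX5B (0.10), the low-oxygen form of a cytochrome c oxidase subunit, was the 1 gene with a positive difference, and ATP3 (-0.01), a subunit of the ATP synthase, came next. Both channels of COX5B were lower with Rpb4, with differences of -0.46 in the extract (limma adjusted p = 0.0116) and -0.37 in the IP. The list median was -0.25, beside 0.01 over all genes, and against the median probe 24 of the 28 were higher and 0 lower with Rpb3, and 16 higher and 2 lower with Rpb4, where 38.4%, 29.2%, 37.8% and 25.7% of all genes were called. Without Rpb3 array 1 the list held 18 lower and 3 higher genes, and without Rpb3 array 2 it held 20 lower and 0 higher, where 29.0% and 15.8% of all genes were lower and 33.6% and 10.6% higher.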

How the data were processed

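The 4 deposited array files hold, per the file headers, foreground and background intensity, background SD and normalized intensity of both channels and a log2 ratio. The submitters' processing notes name Agilent Feature Extraction, version 9.1. On these values the authors' normalized signal is net signal minus a constant per array (IP 10.0, 6.0, 7.25 and 5.0, WCE 18.0, 11.0, 11.0 and 11.0), with the WCE then multiplied by 0.690, 0.446, 0.808 and 0.928. Excluded probes (100, 81, 149 and 179, of which 90, 77, 141 and 169 mitochondrial) stayed out of the main fits. Each excluded mitochondrial probe had no positive normalized signal in at least 1 channel.

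Channel levels were log2 net signal minus the array's median over data probes. Ratios were centred the same way, with no loess or quantile step. Gene values are means over probes inside the gene. limma 3.58.1 in R 4.3.3 (lmFit, eBayes) was fitted over all 41775 probes or 5493 genes and 4 arrays, two-sided, with Benjamini-Hochberg adjustment at 0.05, and tested on simulated data. Figures used Python 3.11.15 with pandas 2.3.3, numpy 2.4.6 and matplotlib 3.10.9. No dye swap was made. The small number of arrays limits precision. Named were all mitochondrial genes, the 3 highest and 3 lowest probes per group ratio and extract difference, the 2 extreme genes on each side of each nuclear list, and RPO41, MTF1, ABF2 and MIP1. Members, lists and the rule were chosen with earlier results of these data known. Alternatives were normexp (offset 50), quantile normalization, no centring, foreground minus background alone, probe filters, a floor added after the data were seen, and leaving out each array. The series value table was not used here.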

Additional observations from a re-analysis of the deposited data

Results flagged for a closer look

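At 6 mitochondrial probes the ratio of IP to extract differed between the Rpb4 and the Rpb3 strain by the limma test of the difference (0.17% of all probes were called higher and 0.694% lower). At the COX1 probe chrM:25307-25366 it was -0.67 and -0.12 with Rpb3 and 1.97 and 2.48 with Rpb4, a difference of 2.62. At chrM:31268-31327, with no nearby gene, it was -2.13 and -2.27 against -1.14 and -1.03, a difference of 1.11. The other 4 values rest on 1 Rpb4 array each, and no spread within that group stands behind them. They were 3.10 at chrM:7982-8041, 1.82 at chrM:17640-17699 in AI2, 2.07 at chrM:66103-66162 and -2.46 at chrM:39980-40039 in BI3. In the extract these 6 probes read 9.0 to 132 units with Rpb4.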

How the results depend on the processing

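No paired analysis was possible because the labels give no replicate numbers. Counts below are for mitochondrial members past the limma threshold, and the cause of a shift was not tested unless the setting itself removes probes. OLI1 was higher in the extract of the Rpb4 strain under every setting that kept genes with 1 probe, and the count of lower genes in the extract lay between 5 and 16 under all settings.

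With normexp background correction the extract gave 1 higher and 49 lower probes, the IP 4 lower probes and 1 lower gene, the Rpb3 ratio 1 higher probe and 17 lower genes, and the Rpb4 ratio 0 higher and 1 lower probe. Of all probes, 2.14% were higher and 5.14% lower in the extract. In the IP 1.98% of all probes and 7.56% of all genes were lower. For the Rpb3 ratio 28.9% of all probes were higher and 26.7% of all genes lower. For the Rpb4 ratio 25.3% of all probes were higher and 15.4% lower. The ratio difference then had 22 higher and 0 lower probes and 7 higher and 1 lower genes. Of all probes 0.363% were higher and 1.42% lower, and of all genes 1.99% and 4.97%. The IP difference turned positive for COX1 (0.13), ATP6 (0.044), COB (0.18), BI2 (0.22) and SCEI (0.074). The difference of the whole-genome medians became 0.32 for the ratio, -0.036 for the extract and 0.31 for the IP, from 1.13, -1.40 and -0.91. Of the nuclear lists, maintenance had 1 higher and 1 lower gene, and the complexes 3 lower, beside those same 1.99% and 4.97% of all genes.

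With quantile normalization there were 4 higher probes in the IP, 5 lower in the ratio difference, 2 higher genes in the extract, 1 higher and 1 lower maintenance gene and 4 lower complex genes. Of all probes 0.819% were higher in the IP and 1.45% lower in the ratio difference. Of all genes 3.57% were higher in the extract, and 3.42% were higher and 3.61% lower in the ratio difference. Without centring, 3 probes were higher in the ratio difference, where 0.139% of all probes were. From foreground minus background the ratio difference had 3 higher and 0 lower probes and 1 higher gene, the Rpb4 ratio had 3 lower genes, and that of Q0255 was -0.39. Of all probes 0.175% were higher and 0.744% lower in that difference. Of all genes 1.0% were higher in it, and 25.8% were lower in the Rpb4 ratio. With genes of 2 or more probes only, OLI1 drops out, which left 0 lower genes for the Rpb4 ratio and 0 higher in the extract. Of all such genes 27.6% and 3.44% were called there.

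Restricted to probes above background on all arrays, the extract had 6 higher and 49 lower probes, the IP 27 lower, the Rpb3 ratio 20 lower probes and 3 lower genes, the Rpb4 ratio 8 higher and 10 lower probes, and the ratio difference 2 and 0. Of all probes 3.05% were higher and 5.38% lower in the extract, and 0.154% lower in the IP. For the Rpb3 ratio 24.9% of all probes and 29.2% of all genes were lower. For the Rpb4 ratio 26.1% and 21.3% of all probes were called, and for the difference 0.171% and 0.744%. The whole-genome differences were then 1.70, -5.14 and -3.59. With excluded probes kept, the extract had 10 higher and 157 lower probes and 16 lower genes, and the floor, chosen after the data were seen, gave 9, 160 and 16, and 15 lower genes in the IP. Over all features the shares were 2.47%, 5.06% and 5.92% with excluded probes kept. With the floor they were 2.6%, 5.18% and 5.88%, and 3.11% in the IP. The whole-genome differences were -1.98 and -1.24 with excluded probes kept, and -2.01 and -1.54 with the floor, for extract and IP.

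The detection counts fell most with the 99th percentile of the negative control spots as threshold. They became 76, 90, 35 and 12 probes for the extract and 60, 69, 16 and 11 for the IP. At 5 SD Rpb4 array 2 kept 77 and 70.

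Leaving out 1 array at a time gave these ranges. The share of all features called also differed widely between these fits, so a range alone does not set mitochondrial or listed members apart. Extract probes were higher at 13 to 20 and lower at 86 to 113, and genes at 1 to 2 and 5 to 14. IP probes were higher at 5 to 15 and lower at 83 to 136, and genes at 0 to 1 and 10 to 13. Rpb3 ratio probes were higher at 11 to 27 and lower at 145 to 173, and genes lower at 5 to 18. Rpb4 ratio probes were higher at 17 to 55 and lower at 29 to 87, and genes at 0 to 11 and 2 to 13. For the ratio difference, 22 to 93 probes were higher and 7 to 37 lower, and 0 to 12 and 0 to 1 genes. Whole-genome differences ran from 0.62 to 1.64 for the ratio, from -1.93 to -0.88 for the extract and from -1.23 to -0.58 for the IP. The maintenance list had 0 to 6 higher and 0 to 4 lower genes, the splicing and translation list 0 to 9 and 0 to 6, and the complexes 0 to 3 and 0 to 20. A group left with 1 array is assumed to vary like the other group. For 13 genes the Rpb4 ratio took the sign of the 1 Rpb4 array kept. Without array 2 and without array 1, among these, it was -0.87 and 2.63 for AI1, -0.90 and 3.01 for AI2, -1.14 and 1.06 for AI3, -0.85 and 1.36 for AI4, -0.77 and 3.18 for ATP6, -0.60 and 1.53 for BI2, -0.77 and 1.57 for BI4, -1.002 and 3.75 for SCEI, -0.69 and 1.38 for Q0255, and -0.57 and 2.26 for COX3.

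Signal over background limits the Rpb4 values most: in the extract 104 of the 295 probes were above background on all 4 arrays.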
